A study of Mus musculus with 8 samples.

Results

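The clustered histone genes encode the linker histone H1 and the core histones H2A, H2B, H3 and H4, and they lie in the Hist1, Hist2, Hist3 and Hist4 gene clusters of the mouse genome. They were taken from the RNA-Seq tables of E15.5 germ cells as every locus that carries a gene name starting with Hist1h, Hist2h, Hist3h or Hist4h. This gave 68 of 29018 loci in the female table (65 gene names) and 69 of 30216 loci in the male table (64 gene names). In both tables a single locus carries the names of Hist1h1d and Hist1h4d together and was kept apart from the histone types. The other loci comprised 6 H1, 18 H2A, 19 H2B, 12 H3 and 12 H4 loci in females, and 6, 18, 19, 13 and 12 in males.

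The germ cells came from mouse embryos at E15.5, for which the labels give the strain C57BL/6 and the study's methods a mix of C57BL/6, 129/Sv and ICR, and were sorted by Oct4-EGFP, a transgene that marks germ cells with a green fluorescent protein and that all groups carried. Each sex had 2 control and 2 Snf5 CKO libraries (8 in all). Female and control libraries were made from pooled embryos, whereas each preparation of male Snf5 CKO cells came from a single embryo. Snf5 (Smarcb1) is a gene for one of the core proteins of SWI/SNF, a chromatin remodelling complex. The Snf5 CKO embryos were Snf5 fx/Δ with TNAP-Cre, a Cre knocked into the Alpl gene that recombines in primordial germ cells, so the deletion starts before E15.5 and its completeness varies between cells. The controls were a mixture of Snf5 fx/+, Snf5 fx/Δ and Snf5 fx/+ with TNAP-Cre germ cells. As a check of the labels, Smarcb1 was at 23.4 and 22.3 FPKM in the female controls against 4.24 and 2.47 in the female Snf5 CKO libraries. In males it was at 141 and 167 against 8.73 and 10.1 FPKM.

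Replication-dependent histone genes are transcribed in S phase, when new nucleosomes are assembled behind the replication fork. Their genes usually lack introns, and their mRNAs end in a conserved stem-loop in place of a poly(A) tail. The stem-loop is bound by SLBP, which is needed for processing, translation and turnover of the message. At E15.5, female germ cells normally are in meiotic prophase, whereas male germ cells are in mitotic arrest. The cDNA was primed at poly(A) tails, so these values report the share of clustered histone mRNA that such priming captured. How that share differed between groups was not tested.

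Of the 64 gene names that have a coding transcript model in GENCODE, 41 had the 16-base stem-loop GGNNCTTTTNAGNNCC after the stop codon, 21 to 58 bases downstream of it. The same letters are found in 86 of 52048 coding transcripts of the whole annotation that extend past the stop. The sites of 4 genes are shown with their flanks because these loci recur in the results below, with the stem-loop in capitals. They lie on the minus strand of GRCm38 chromosome 13 in single-exon transcripts, after the stop codon, at chr13:23698084-23698109 (Hist1h4c), chr13:23621777-23621802 (Hist1h1e), chr13:23570663-23570688 (Hist1h2ae) and chr13:23745042-23745067 (Hist1h3c).
Hist1h4c: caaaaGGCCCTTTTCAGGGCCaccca
Hist1h1e: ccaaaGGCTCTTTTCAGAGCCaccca
Hist1h2ae: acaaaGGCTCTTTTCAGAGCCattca
Hist1h3c: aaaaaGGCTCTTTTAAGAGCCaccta
The first arm of the stem reads GGCTC in all 30 H1, H2A, H2B and H3 genes with a site, whereas the 11 H4 genes with a site have GGCCC (9 genes) or GGTCC (2 genes). Hist1h2bc has no such site in its 2-exon model of 1156 bases. The models of Hist1h2aa and Hist1h2ba end at the stop codon, so they hold no sequence in which a site could be found. In each sex, 13 single-name loci without a site, these 2 among them, have models that end within 20 bases of the stop. The 41 is therefore a count of sites seen in models and not a rate for the genes.

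Promoters were found for 59 gene names in RefSeq (GRCm38.p6). In the 250 bases upstream of the start, searched on both strands, the octamer ATTTGCAT occurred in 7 of 16 H2A and 6 of 16 H2B promoters, in no H1, H3 or H4 promoter, and in 1.6% of all promoters. The H1 box AAACACA occurred in 5 of 6 H1 promoters against 6.25% of all. The CCAAT box occurred in all 16 H2A and all 16 H2B promoters but in 3 of 12 H4 promoters, against 33.8% of all. TATAAA occurred in between 43.8% and 66.7% of each type against 12.4% of all. Hist1h2ba and Hist1h2aa are divergent neighbours, and 220 bases of their upstream windows are the same stretch of DNA. The Hist1h2ba window (chr13:23934157-23934406, minus strand) is shown for this pair, which had the lowest fold changes in females. The Hist1h1b window (chr13:21780626-21780875, minus strand) is shown for the H1 gene that rose in both sexes. Capitals mark the CCAAT box, the TATA box, the octamer and, for Hist1h1b, the H1 box, on either strand.
Hist1h2ba: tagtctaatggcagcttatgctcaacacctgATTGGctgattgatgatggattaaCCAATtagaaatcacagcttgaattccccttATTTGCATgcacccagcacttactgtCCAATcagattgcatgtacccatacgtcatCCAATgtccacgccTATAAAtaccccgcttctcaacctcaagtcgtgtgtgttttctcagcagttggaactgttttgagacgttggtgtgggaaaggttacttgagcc
Hist1h1b: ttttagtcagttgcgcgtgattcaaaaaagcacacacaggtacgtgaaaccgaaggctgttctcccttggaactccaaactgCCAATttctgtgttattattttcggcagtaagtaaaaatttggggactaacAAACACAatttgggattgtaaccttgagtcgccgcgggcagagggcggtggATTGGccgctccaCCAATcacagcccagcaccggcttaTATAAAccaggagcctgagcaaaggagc
A match is a description of these letters only.

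Values are FPKM, which scale fragments by transcript length and library size, as quantified by the authors in a separate run for each sex, so levels were not compared between sexes by a test. The tables hold no counts, and the depth of the libraries is unknown. Summed over named loci, a library held between 606784 and 737078 FPKM in females. In males the sums were 637948 and 792227 in the controls and 654338 and 1004900 in Snf5 CKO, with the higher value in replicate 2 of each group. Coding sequences of clustered histone genes are close copies: 47 genes share over 50% of their 75-base coding windows with another gene, and 6 share none. Values of single members are therefore uncertain where reads could be split between copies. All members had the status OK in all libraries.

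In female germ cells, clustered histone genes did not move one way. Both Snf5 CKO libraries lay above both controls at 26 of 68 loci (38.2%) and below both at 12 (17.6%), against 23.8% and 30.4% of all 24281 named loci. Fold changes were taken on the log2(FPKM + 1) scale for loci with a mean of at least 1 FPKM, which 44 loci passed. Calls were made with limma where the log2 fold change was 1 or more in size and the adjusted p (Benjamini-Hochberg, over all tested loci) was under 0.05. Of these, 8 rose and 5 fell, and over all tested loci 17.2% were called higher and 21.8% lower. The median log2 fold change was 0.19, with −0.14 over all tested loci. The other 24 loci were under the filter, with no value above 2.85 FPKM, and 2 of these are listed at 0 in all 4 libraries.

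**Figure D1:**
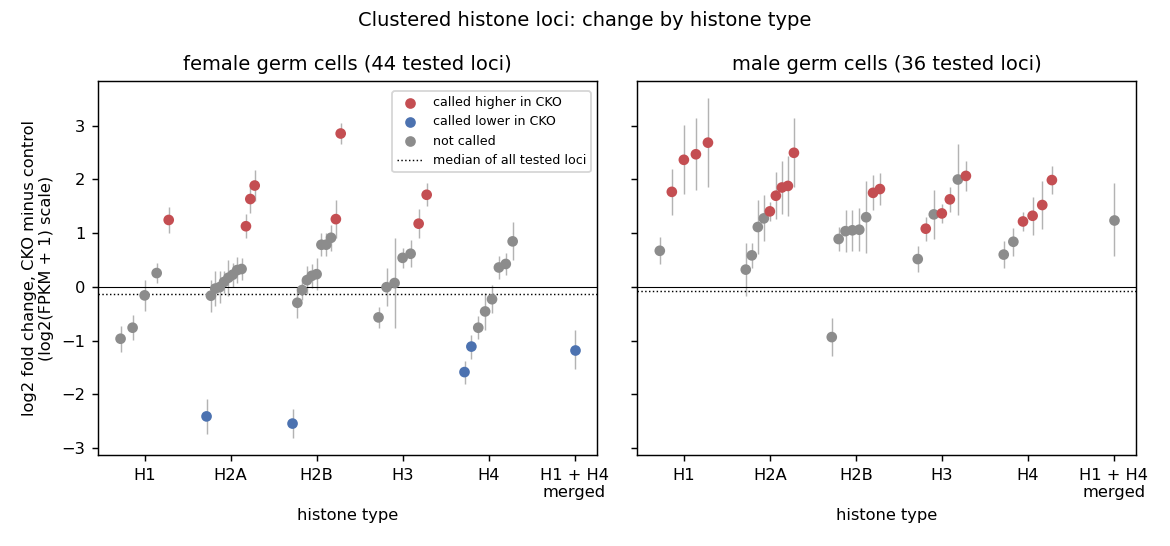
Log2 fold change of each tested clustered histone locus (y axis, Snf5 CKO minus control on the log2(FPKM + 1) scale) by histone type (x axis) in female and male germ cells. Points are loci, bars are standard errors of the limma fit with 2 libraries per group, and the dotted line is the median of all tested loci. The 44 female loci spread between −2.54 and 2.85, whereas 35 of the 36 male loci lie above 0.

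The germ-line members Hist1h2ba and Hist1h2aa had the lowest fold changes of all members in females, and both fell. Hist1h2ba encodes TH2B, a germ-line H2B. Its values were 14.4 and 9.41 FPKM in the female controls and 0.831 and 1.57 in Snf5 CKO. The groups did not overlap, and the control mean was 9.91-fold higher (log2 fold change −2.54 ± 0.27 SE, adjusted p = 0.000415, limma). Hist1h2aa encodes TH2A, a germ-line H2A, and shares the upstream region shown for Hist1h2ba. Its values were 11.2 and 7.99 FPKM in controls and 0.457 and 1.66 in Snf5 CKO (−2.41 ± 0.32, adjusted p = 0.000966, limma). In males both were near or at 0, at most 0.41 FPKM in any library, and were not tested. A further germ-line member, Hist1h1t, encodes the testis linker histone H1t. It was under the filter in both sexes, at 1.13 and 1.08 FPKM in female controls and 0.207 and 0.582 in female Snf5 CKO, and at most 0.443 in males.

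Among H1 genes in females, 1 of 5 tested loci (20%) rose and none fell at the threshold, against 17.2% and 21.8% of all tested loci. At an unadjusted p under 0.05, limma had 1 H1 locus higher and 2 lower. Hist1h1b, a somatic linker histone gene, was at 14.3 and 21.9 FPKM in controls and 38.6 and 48.6 in Snf5 CKO (1.25 ± 0.24, adjusted p = 0.00432, limma). Both Snf5 CKO libraries were above both controls. Hist1h1e and Hist1h1a, also somatic H1 genes, went the other way without reaching the fold threshold. Hist1h1e was at 80.3 and 94.9 FPKM in controls and 35.5 and 55.1 in Snf5 CKO (−0.97 ± 0.24, adjusted p = 0.0124, limma). Hist1h1a was at 19.2 and 16.8 against 8.27 and 12.5 FPKM (−0.76 ± 0.23, adjusted p = 0.0259, limma). Neither gene's groups overlapped. Hist1h1c and Hist1h1d differed by −0.16 and 0.26 and were not past the threshold. The value of Hist1h1d is for the locus with this name alone, and the merged locus below, which also carries it, fell. Of these genes Hist1h1a and Hist1h1b share no coding window with another gene, and Hist1h1e shares 17.9%.

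Of the 8 tested H4 loci in females, 2 (25%) were called lower and none higher, against 21.8% and 17.2% of all tested loci. Over the 12 H4 loci, 4 lay above both controls and 3 below both. Hist1h4c encodes the same kind of replication-dependent H4 as its neighbours and was the most abundant H4 locus. It was at 86.3 and 63.5 FPKM in controls and at 21.7 and 26.6 in Snf5 CKO, a 3.11-fold lower mean (−1.59 ± 0.21, adjusted p = 0.000963, limma). Hist1h4k was at 3.54 and 2.35 against 0.927 and 0.695 FPKM (−1.11 ± 0.22, adjusted p = 0.00511, limma), and it passed the filter only through the controls. Hist1h4m had 18.3 and 13.8 against 7.95 and 10.2 FPKM, without overlap but under the fold threshold (−0.76 ± 0.22, adjusted p = 0.0211, limma). At the other end, Hist4h4, the single gene of the Hist4 cluster, was at 1.84 and 1.13 against 2.09 and 5.33 FPKM (0.85 ± 0.36, adjusted p = 0.0763, limma). Hist1h4c shares 52.9% and Hist1h4m 100% of its coding windows with other genes. Summed over the 12 H4 loci, FPKM was 118 ± 20.4 in controls and 65.0 ± 9.2 in Snf5 CKO (SD, n = 2). The ratios were 0.44-fold and 0.688-fold within replicate 1 and replicate 2. Hist1h4c alone held 86.3 of 133 and 63.5 of 104 FPKM in the controls. In Snf5 CKO it held 21.7 of 58.5 and 26.6 of 71.5 FPKM. The fall of the H4 sum therefore rests largely on this locus and is not a result for H4 genes in general.

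The locus that merges Hist1h1d and Hist1h4d held more FPKM than all other members together in the female controls, at 741 and 1301. It was at 360.2 and 530.0 in Snf5 CKO and fell (−1.17 ± 0.37, adjusted p = 0.0293, limma). Its reads cannot be divided between H1 and H4 from the table. The call was lost when control replicate 2 (−0.76, adjusted p = 0.172) or Snf5 CKO replicate 1 (−0.89, adjusted p = 0.15) was left out of the limma fit, and after median-of-ratios rescaling, where its log2 fold change was −0.99. With it, the summed FPKM of all members was 1541 ± 428 in controls and 972 ± 233 in Snf5 CKO (SD, n = 2). Without it the sums were 521 ± 32.5 and 527 ± 112, so the direction of the total rests on this locus.

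In females 3 of 12 tested H2A loci (25%), 2 of 11 H2B loci (18.2%) and 2 of 7 H3 loci (28.6%) were called higher. Over all tested loci this share was 17.2%, so that of H2B was near it. Called lower were 1 H2A and 1 H2B locus. Hist1h2bc, an H2B gene of the Hist1 cluster whose model has a second exon past the stop, was at 1.67 and 1.68 FPKM in controls and at 19.6 and 17.1 in Snf5 CKO. Its mean was 10.97-fold higher, with no overlap (2.85 ± 0.19, adjusted p = 0.000113, limma). It shares 95.1% of its coding windows with other H2B genes but 27.1% of the windows of the whole transcript. Hist2h2ac, an H2A gene of the Hist2 cluster, was at 0.181 and 0.508 against 2.85 and 5.31 FPKM (1.89 ± 0.28, adjusted p = 0.00151, limma). Its control mean was under 1 FPKM, so it passed the filter only through the Snf5 CKO libraries and its call is a description. Hist3h2a, the H2A gene of the Hist3 cluster, was at 1.64 and 2.87 against 7.44 and 10.7 FPKM (1.63 ± 0.27, adjusted p = 0.00219, limma). All 3 therefore had both Snf5 CKO libraries well above both controls.

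Hist1h3c, an H3 gene, was at 4.48 and 6.41 FPKM in female controls and at 19.1 and 20.8 in Snf5 CKO (1.71 ± 0.21, adjusted p = 0.000703, limma). Hist2h2bb, Hist1h3e and Hist1h2ag also rose, with log2 fold changes of 1.26, 1.18 and 1.13. They encode H2B, H3 and H2A. Each of these 3 calls was lost without Snf5 CKO replicate 2, where the log2 fold changes were 0.74, 0.81 and 0.89. In contrast, Hist1h3a was at 15.4 and 14.0 against 8.55 and 10.8 FPKM (−0.57 ± 0.19, adjusted p = 0.0383, limma). The most abundant H2A locus, Hist1h2ae, was at 70.8 and 95.4 against 101 and 107 FPKM and was not called (0.33 ± 0.20, adjusted p = 0.195, limma). The summed FPKM of H2A was 142 ± 24.8 against 178 ± 31.0, of H2B 67.2 ± 8.3 against 95.4 ± 17.7, and of H3 50.1 ± 20.01 against 70.4 ± 25.9 in controls and Snf5 CKO (SD, n = 2). Of these sums, those of H2A and H3 overlapped between the groups and that of H2B did not. The H2B sum without Hist1h2bc was 65.6 ± 8.3 against 77.0 ± 19.4. With 2 libraries against 2, an exact permutation test cannot go below p = 0.333, so the sums were not tested.

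**Figure D2:**
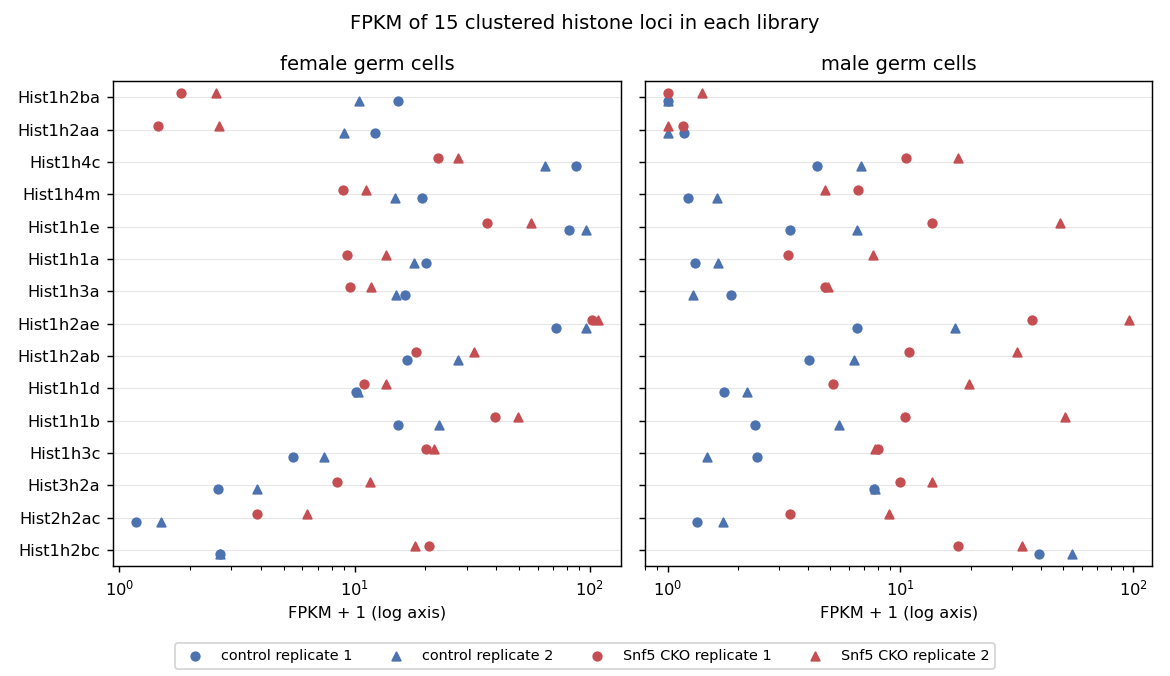
FPKM + 1 (x axis, log scale) of 15 clustered histone loci (y axis) in each library of female and male germ cells. Blue marks are controls and red marks are Snf5 CKO, with circles for replicate 1 and triangles for replicate 2. Hist1h2bc lies at 17.1 and 19.6 FPKM in female Snf5 CKO against under 2 FPKM in controls, and the order is turned in males.

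In male germ cells, clustered histone genes were mostly higher in Snf5 CKO. Both Snf5 CKO libraries lay above both controls at 47 of 69 loci (68.1%) and below both at 2 (2.9%). Over all 23944 named loci these shares were 22.6% and 33.1%. A mean of at least 1 FPKM was reached by 36 loci, of which 19 rose and none fell at the threshold, with 14.3% of all tested loci called higher and 17.5% lower. At an unadjusted p under 0.05, limma had 29 of the 36 higher and 1 lower. At 10 of the 19 called loci the control mean was under 1 FPKM. Such loci passed the filter only through the Snf5 CKO libraries, so their count, calls and p-values are descriptions. Among the loci given below these are Hist1h1a, Hist1h1d, Hist2h2ac, Hist1h3a, Hist1h3c, Hist1h4m and Hist1h2bm. When limma was given the replicate block, 28 loci were called higher. Of the 33 loci under the filter, none exceeded 2.72 FPKM and 6 are listed at 0 in all 4 libraries.

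H1 had the highest median of the types in males, a log2 fold change of 2.36 over 5 tested loci, against 1.40 for H2A, 1.06 for H2B, 1.37 for H3 and 1.27 for H4. Hist1h1b was at 1.37 and 4.44 FPKM in controls and at 9.48 and 49.8 in Snf5 CKO (2.68 ± 0.83, adjusted p = 0.0497, limma). The groups did not overlap, but the Snf5 CKO libraries differed from each other by more than the controls did. Hist1h1e was at 2.36 and 5.48 against 12.7 and 47.6 FPKM (2.47 ± 0.67, adjusted p = 0.0347, limma). Hist1h1d, at the locus with this name alone, was at 0.744 and 1.18 against 4.13 and 18.7 FPKM (2.36 ± 0.64, adjusted p = 0.0351, limma). The merged locus, given below, also carries the name, holds more FPKM and was not called in males. Hist1h1a was at 0.316 and 0.645 against 2.3 and 6.62 FPKM (1.77 ± 0.43, adjusted p = 0.0246, limma). For all 4 genes the higher Snf5 CKO value was that of replicate 2, a library from a single embryo. Hist1h1c was at 4.39 and 4.15 against 5.92 and 9.16 FPKM and was not called (0.67 ± 0.25, adjusted p = 0.0815, limma). The 6 H1 loci summed to 9.26 and 16.01 FPKM in controls and to 34.7 and 132 in Snf5 CKO, ratios of 3.75 in replicate 1 and 8.26 in replicate 2. Without control replicate 1, the 4 calls were lost, with adjusted p between 0.0526 and 0.113 in limma and log2 fold changes of 1.61 to 2.20.

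H2A, H3 and H4 loci rose in males as well. Hist1h2ae, the most abundant H2A locus, was at 5.50 and 16.1 FPKM in controls and at 35.7 and 95.3 in Snf5 CKO (2.49 ± 0.64, adjusted p = 0.0295, limma). Hist1h2ab, another H2A gene, was at 3.04 and 5.31 against 9.83 and 30.8 FPKM (1.88 ± 0.56, adjusted p = 0.0445, limma). Within each replicate number, Hist1h2ae was 6.48-fold and 5.92-fold higher, and Hist1h2ab 3.23-fold and 5.8-fold higher. Hist2h2ac was at 0.332 and 0.733 against 2.36 and 7.91 FPKM (1.85 ± 0.49, adjusted p = 0.032, limma). Hist3h2a was at 6.73 and 6.79 against 8.91 and 12.7 FPKM and was not called (0.59 ± 0.23, adjusted p = 0.0911, limma).

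The H3 gene Hist1h3c was at 1.43 and 0.468 FPKM in male controls and at 7.03 and 6.77 in Snf5 CKO (2.06 ± 0.29, adjusted p = 0.00557, limma). Its Snf5 CKO libraries were close to each other, unlike those of the H1 genes. The same held for the H4 gene Hist1h4m, at 0.22 and 0.635 against 5.59 and 3.76 FPKM (1.99 ± 0.26, adjusted p = 0.0047, limma). Hist1h4c was at 3.37 and 5.78 against 9.53 and 16.6 FPKM (1.32 ± 0.35, adjusted p = 0.0334, limma). Hist4h4 was at 1.12 and 2.005 against 2.52 and 3.17 FPKM and was not called (0.60 ± 0.24, adjusted p = 0.101, limma). The H3 loci summed to 9.61 ± 2.07 FPKM in controls and 45.9 ± 20.7 in Snf5 CKO, and the H4 loci to 13.5 ± 3.33 and 44.9 ± 17.2 (SD, n = 2). The sums of H1, H2A, H3 and H4 did not overlap between the groups.

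H2B differed between its members in males. Hist1h2bm was at 0.627 and 0.618 FPKM in controls and at 3.33 and 6.58 in Snf5 CKO (1.82 ± 0.30, adjusted p = 0.00895, limma). Hist1h2bj was at 2.55 and 0.95 against 7.4 and 8.31 FPKM (1.75 ± 0.33, adjusted p = 0.012, limma). These were the 2 H2B loci called. Hist1h2bc was the one tested member with a negative fold change, at 38.4 and 53.8 FPKM in controls and 16.7 and 32.4 in Snf5 CKO. Its groups did not overlap, but it was not called (−0.93 ± 0.36, adjusted p = 0.0894, limma). It was called lower after rescaling each library to a common sum (−1.13, adjusted p = 0.0398) and without Snf5 CKO replicate 2 (−1.39, adjusted p = 0.0146), both with limma. The H2B sum was 54.4 ± 12.7 against 56.5 ± 23.2 FPKM, and without Hist1h2bc it was 8.34 ± 1.85 against 32.0 ± 12.1 (SD, n = 2). Hist3h2ba, an H2B gene of the Hist3 cluster, was below both controls too, at 1.02 and 1.75 against 0.303 and 0.119 FPKM, and was under the filter.

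Summed over all members, male controls held 194 and 350 FPKM and Snf5 CKO 395 and 1143, ratios of 2.04 in replicate 1 and 3.27 in replicate 2. Without the merged locus the values were 93.1 and 143 against 210 and 499. The merged locus itself was at 101 and 207 against 185 and 643 FPKM, overlapped between groups and was not called (1.25 ± 0.68, adjusted p = 0.19, limma). It was 1.84-fold and 3.11-fold higher within replicate 1 and replicate 2, and was called higher with the replicate block (adjusted p = 0.00186, limma). As a share of the FPKM of named loci, members held 0.0304% and 0.0442% in male controls and 0.0603% and 0.114% in Snf5 CKO. In females the shares were 0.19% and 0.261% against 0.133% and 0.154%. Leaving out male Snf5 CKO replicate 2 gave 16 loci called higher, and leaving out control replicate 1 gave 8. Leaving out Snf5 CKO replicate 1 gave 30.

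**Figure D3:**
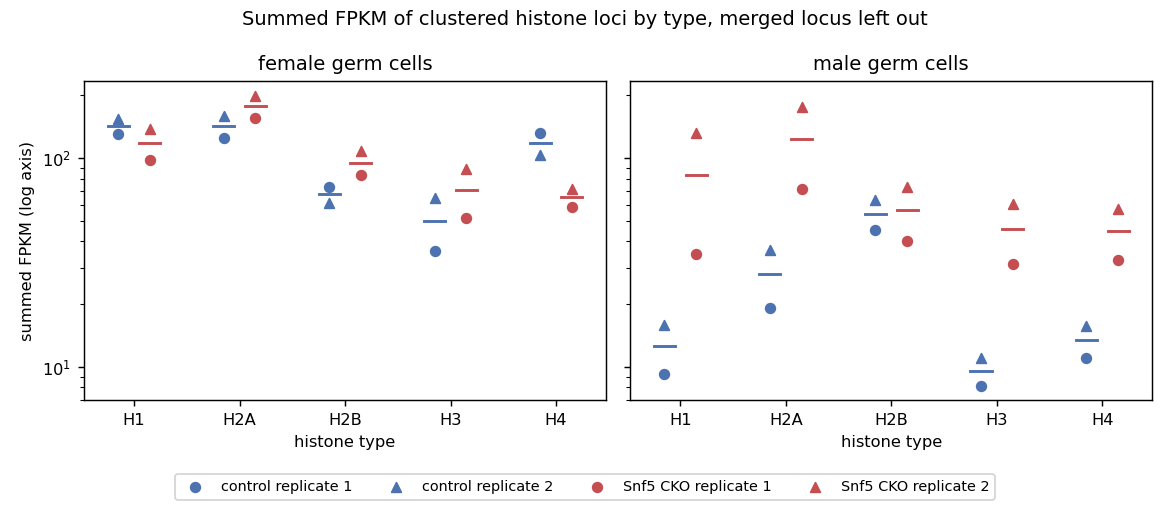
Summed FPKM (y axis, log scale) of the clustered histone loci of each type (x axis) in each library, without the merged Hist1h1d and Hist1h4d locus. Circles are replicate 1, triangles replicate 2, and short lines the means of control (blue) and Snf5 CKO (red). In females H4 is lower and H2B higher in both Snf5 CKO libraries, and in males H1, H2A, H3 and H4 are higher in both. Most of the H4 sum in female controls is Hist1h4c.

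Both sexes had 35 loci in the test, and each sex had its own controls. Of these loci, 15 lay above both controls in both sexes, and 5 were called higher in both: Hist1h1b, Hist1h2ag, Hist1h3c, Hist1h3e and Hist2h2ac. In single sexes, 23.8% of all named loci in females and 22.6% in males lay above both controls. Of all tested loci, 17.2% and 14.3% were called higher. The shares of all loci that did so in both sexes were not computed, so these 2 counts are descriptions. The control mean of Hist2h2ac was under 1 FPKM in both sexes and that of Hist1h3c in males, so these calls depend on the Snf5 CKO libraries having brought them past the filter. Hist1h4c fell in females and rose in males. Hist1h1e, Hist1h4m, Hist1h1a and Hist1h3a had the same pattern of libraries, below both controls in females and above both in males, and Hist1h2bc had the reverse pattern. No model across the tables was fitted, so these differences between the sexes were not tested. The share of all loci with such opposite patterns was not computed either.

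**Figure D4:**
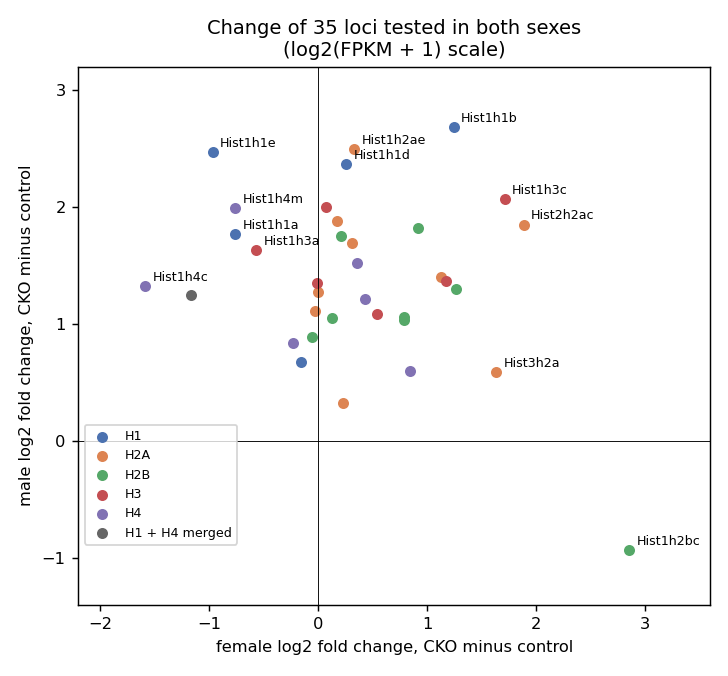
Log2 fold change (Snf5 CKO minus control, log2(FPKM + 1) scale) of the 35 loci tested in both sexes, females on the x axis and males on the y axis, coloured by histone type. Nearly all points lie above 0 on the male axis, on both sides of 0 on the female axis, and Hist1h2bc stands alone at 2.85 and −0.93.

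The counts by position and by sequence that follow stand against 23.8% of all named loci in females and 22.6% in males with both Snf5 CKO libraries above both controls. The Hist1 cluster on chromosome 13 supplied 53 single-name loci in each sex, of which both Snf5 CKO libraries were above both controls at 18 in females and 37 in males. In the Hist2 cluster on chromosome 3 this held for 6 of 10 loci in females and 8 of 11 in males. Of the 3 loci in the Hist3 cluster it held for 1 in each sex. Of the loci whose models have the stem-loop, 17 of 43 in females and 33 of 44 in males were above both controls. Among those with a model but no stem-loop in it the numbers were 9 of 23 and 14 of 23. Of these 23 loci, 13 have models that end within 20 bases of the stop, too short to hold a site. The 13 were above both controls at 4 in females and 8 in males. The split is therefore one of models and not of genes with and without the stem-loop. Loci whose genes share over 50% of their coding windows with another gene were above both controls at 19 of 50 in females and 35 of 51 in males, against 7 of 16 and 12 of 16 of the others.

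Among 23 tested genes of histone mRNA transcription and processing, 5 fell and 2 rose in females, and in males 1 rose and none fell, with 7 lower and 3 higher at an unadjusted p under 0.05 (limma). The shares called were 21.7% lower and 8.7% higher in females and 4.35% higher in males, none above the shares of all tested loci (21.8% and 17.2% in females, 14.3% higher in males). Slbp, the stem-loop binding protein, was at 320.2 and 335 FPKM in female controls and 249.8 and 234 in Snf5 CKO and was not called (−0.44 ± 0.20, adjusted p = 0.1004, limma). In males it rose from 83.5 and 90.4 to 275 and 269 FPKM (1.64 ± 0.18, adjusted p = 0.0033, limma). Npat, the coactivator of histone gene transcription at the histone locus body, fell in females from 44.3 and 41.8 to 12.6 and 11.2 FPKM (−1.78 ± 0.17, adjusted p = 0.00027, limma). In males Npat was at 12.2 and 8.78 against 9.5 and 6.49 FPKM and was not called. Casp8ap2 (FLASH), a processing factor, was not called in either sex, with log2 fold changes of −0.92 and 0.42. Of the other genes called in females, Mif4gd, which encodes an SLBP-interacting protein, rose (1.36 ± 0.19, adjusted p = 0.00124, limma), and Sympk, a scaffold of the cleavage complex, fell (−1.31 ± 0.27, adjusted p = 0.00513, limma).

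Replacement histones are made outside S phase too and mostly have polyadenylated messages. Of 12 tested genes 5 rose (41.7%) and 2 fell (16.7%) in females, and of 11 tested 4 rose (36.4%) in males. Over all tested loci 17.2% were called higher and 21.8% lower in females, and 14.3% higher in males. H2afx, the histone phosphorylated at DNA breaks, rose in both sexes, from 91.2 and 100.3 to 262 and 285 FPKM in females and from 65.1 and 67.9 to 309.9 and 361 in males. Cenpa, the centromeric H3, rose in both sexes, with log2 fold changes of 2.46 and 1.42. H1f0, a linker histone of non-dividing cells, rose in males (1.51 ± 0.25, adjusted p = 0.00896, limma) and was not called in females. H2afv, an H2A.Z gene, rose in females (1.48). H2afz, H3f3a and H3f3b were not called in either sex. H1foo, the oocyte linker histone, was under 0.5 FPKM in males, and every female library lists it at 0.

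Replication-dependent histone genes are expressed together with other S phase genes, of which 29 were tested. Of these, 11 rose (37.9%) and 2 fell (6.9%) in females (median log2 fold change 0.52), and 18 rose (62.1%) and none fell in males (median 1.26). Over all tested loci 17.2% were called higher and 21.8% lower in females, and 14.3% and 17.5% in males. At an unadjusted p under 0.05, limma had 0 of the S phase genes lower and 25 higher in males. Rrm2, the small subunit of ribonucleotide reductase, rose in both sexes (1.85 and 3.25), as did the thymidylate synthase gene Tyms (2.49 and 1.83). Ccne2, a G1/S cyclin, fell in females from 81.0 and 77.7 to 12.8 and 13.4 FPKM. Mitosis genes rose at 8 of 16 (50%) in each sex, with 1 (6.25%) falling in females, the spindle checkpoint gene Bub1. Histone chaperone genes rose at 3 of 24 and fell at 3 in females, and rose at 4 and fell at 2 in males, which is 12.5% each way in females and 16.7% and 8.33% in males, near or under the shares of all tested loci. Among them the CAF-1 subunit gene Chaf1b rose in males (2.13) and the H3–H4 chaperone gene Asf1b fell in females (−1.58).

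Markers of the sorted and the surrounding cells moved as well. Their counts of calls stand against 17.2% higher and 21.8% lower of all tested loci in females, and 14.3% and 17.5% in males. Germ cell markers were present in all libraries, and their summed FPKM was 5950 and 5898 in female controls against 1931 and 2013 in Snf5 CKO, and 3715 and 4079 against 2315 and 2229 in males. Of the 10 germ cell markers, 6 fell and 1 rose in males, and 3 fell and 4 rose in females. The sums are weighted to abundant genes and do not measure the share of germ cells. In females the most abundant, Sycp3, went from 2667 and 2445 to 180 and 252 FPKM. Pou5f1 rose there from 8.63 and 16.7 to 295 and 333 FPKM. The 10 Sertoli markers were all above both controls in males, 9 were tested and rose, and their sum went from 76.3 and 54.9 to 305 and 377 FPKM. In females their sum was 12.1 and 14.998 against 27.1 and 27.6, and Fshr is listed at 0. Pre-granulosa markers summed to 13.0 and 16.1 against 35.1 and 31.1 FPKM in females, with 3 called higher and 1 lower of 9 tested. In males 4 of 5 tested were called higher, and the sums were 16.6 and 12.8 against 61.3 and 59.3 FPKM. Of the 10 pre-granulosa markers, 6 lay above and 3 below both controls in males. Amhr2, Wt1 and Gata4 are on both this list and the Sertoli list, and Amhr2 was its most abundant gene in males. The male rise of this list is therefore not separate from that of the Sertoli list. Leydig markers summed to 89.4 and 60.3 against 29.6 and 27.2 FPKM in males, with 3 of 6 called lower and 1 higher, and to 5.36 and 5.57 against 14.6 and 13.2 in females, with 1 of 3 tested called higher. Stromal markers were lower in both Snf5 CKO libraries for all 8 in males, with sums of 23.1 and 11.9 against 5.07 and 3.52 FPKM, and in females they summed to 13.9 and 6.40 against 4.13 and 5.41 FPKM. Of the blood and endothelial markers Pecam1 was called higher in females, 1 of 5 tested, and none in males. At an unadjusted p under 0.05, limma had 1 lower and 1 higher in males. In females 3 genes of this list lay above both controls and 2 below both. The 2 below were the endothelial genes Cdh5 and Kdr, at most 0.39 FPKM in any library and not tested. The blood and endothelial sums overlapped between groups in both sexes, from 31.2 to 142 FPKM in females and from 84.2 to 138 in males. The part of these cells in the histone values was not tested. In such bulk samples, fewer cells of a type and less RNA per cell cannot be told apart.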

How the data were processed

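RNA was isolated from Oct4-EGFP-positive E15.5 germ cells, and cDNA was made with a SMART-Seq kit before paired-end sequencing. The authors mapped reads with TopHat and quantified loci as FPKM with Cufflinks on UCSC mm10, once per sex, and deposited a table per sex whose rows are loci and whose columns hold FPKM, bounds of its confidence interval and a quality status. The 16 columns of bounds were not used, and the deposited status, a label and not a score or other measurement, served as a filter in 1 alternative.

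Groups followed the sample labels. Values were fitted with limma 3.58.1 (R 4.3.3) on log2(FPKM + 1) in each sex separately, with eBayes and a trend on the mean, and named loci entered the fit where their 4 libraries averaged 1 FPKM or more (11642 loci in females, 12368 in males). A pseudocount of 1 understates fold changes of low loci. Nothing in the labels says which embryos each library pooled, so p-values measure the spread between libraries. Each library of a number has raw file names in its own style, shared between control and Snf5 CKO, so the number was taken as a shared batch. Replicate 2 minus replicate 1 correlated between control and Snf5 CKO across tested loci, at 0.504 in females and 0.595 in males, and the block of replicate number was an alternative.

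The members, gene lists and tests were chosen with earlier results of these data known. The loci named were, in each sex, the 12 called with the largest fold change, the 5 most abundant, the germ-line, H1, Hist3 and Hist4 members, and from each other list the 3 called with the largest fold change plus 9 genes fixed by name. Hist1h3a, Hist1h4k, Bub1, Pecam1, Cdh5, Kdr, the markers shared between lists and the values of a named locus in the other sex were added after their values were seen. Starts in the tables count from 0. Transcripts and sites came from GENCODE M21, and promoters from RefSeq. The scripts were tested on simulated data. Other settings tried were a pseudocount of 0.1, no filter or a mean of at least 5 FPKM, rescaling to a common sum or by median of ratios, eBayes without trend, no moderation, only status OK, 1 locus per name, unnamed loci added, and each library left out.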

Additional observations from a re-analysis of the deposited data

Results flagged for a closer look

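For 6 of the 35 loci tested in both sexes, the Snf5 CKO libraries lay on opposite sides of both controls in the 2 sexes. How many of all loci did so was not computed, so the count is a description and not a result specific to histone genes. Among all named loci, lower Snf5 CKO values without overlap were seen at 30.4% in females and 33.1% in males. Higher values without overlap were seen at 23.8% and 22.6%. The difference between the sexes was not tested, since the tables were quantified separately. Hist1h4c had log2 fold changes of −1.59 in females and 1.32 in males, and Hist1h1e −0.97 and 2.47. Hist1h4m had −0.76 and 1.99, Hist1h1a −0.76 and 1.77, and Hist1h3a −0.57 and 1.63. Hist1h2bc went the other way, with 2.85 in females and −0.93 in males. Groups of 2 libraries are too small for a check of single outlying libraries.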

How the results depend on the processing

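In females 5 of 44 loci were called lower and 8 higher, and without moderation of the variances 0 were lower and 1 higher. Without moderation, 9.06% of all tested loci were called lower and 7.44% higher. Leaving out 1 library gave between 4 and 7 lower and between 5 and 10 higher, with 5 higher without Snf5 CKO replicate 2. In males 19 were called higher and 0 lower. The count of higher loci was 11 without the filter, 4 with a mean of at least 5 FPKM, 9 with unnamed loci added and 2 without moderation, and 2 loci were called lower after rescaling to a common sum. Leaving out 1 male library gave between 8 and 30 higher and between 0 and 1 lower. With the replicate block, 8 rose and 5 fell in females and 28 rose in males, and the merged locus was added in males. The log2 ratio of summed FPKM was −0.66 in females, 0.018 there with the merged locus left out, and between −0.93 and −0.35 with 1 library left out. In males it was 1.5, and between 0.54 and 2.07 with 1 library left out, a set of alternatives chosen after the data had been seen. The median of female H1 ran from −0.49 to 0.17 with 1 library left out, and that of male H2B was −0.93 with the higher filter, which left Hist1h2bc alone. Both scalings left 26 and 29 of 68 female and 50 and 50 of 69 male loci above both controls. Over all named loci the shares were 23.1% and 26.5% in females and 16.6% and 25.6% in males. The median of all tested loci was −0.26 in males after rescaling to a common sum and 0.02 in females with the median of ratios. The causes were not tested. Depth is unknown, and 2 libraries per group limit all calls.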
